A study of Oryza sativa with 36 samples.

Results

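Young panicles of the rice variety NIPPONBARE were set against those of 5 other varieties under well watered conditions, to find which transcripts had a different level in this variety before any drought. The members were chosen by variety and treatment alone. They were the 3 well watered arrays of NIPPONBARE and the 15 well watered arrays of the other varieties (3 arrays each), 18 of the 36 arrays of the study. NIPPONBARE is a japonica rice that the study's methods list as not drought tolerant. MILT1444, EMATAYIN and HUHAN3 are japonica varieties with drought tolerance, and DOURADOAGULHA and KHAUMEO are indica varieties, of which DOURADOAGULHA is the more tolerant. All plants stood in plots closed in by cement, panicles 2 cm long were collected, and each variety and treatment had 3 experiments that the methods call independent. Nothing in the sources says that the 3 RNAs of a group came from separate plots, so that the spread between arrays may be partly technical. The other 18 arrays, from plants of the same 6 varieties whose plots had been drained, took no part in the main comparison and were used afterwards as separate measurements.

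The japonica and indica subspecies of rice differ in sequence and in gene content, and NIPPONBARE is the variety whose genome serves as the reference. The Affymetrix Rice Genome Array holds short DNA probes, grouped in probe sets. The study's methods base its design on the genome annotation of NIPPONBARE. A probe set is meant for 1 transcript, but some types of probe set may also bind others. RNA that differs in sequence from a probe binds it less well, so that a probe set can read low where the transcript is absent, where it is rarer and where its sequence differs, and these cannot be told apart on the array. At a panicle length of 2 cm the floral organs are forming and pollen mother cells arise inside the anthers. The innermost layer of the anther wall, the tapetum, later breaks down to feed the pollen.

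Values are log2 intensities, so that a difference of 1 is a 2-fold difference, and each difference is the NIPPONBARE mean minus the mean of the 5 other varieties, each weighted equally. A probe set was called where limma, after Benjamini-Hochberg adjustment, gave a p of 0.05 or less and the difference was 2-fold or more. Of 57194 probe sets, 2248 (3.93%) were higher and 598 (1.05%) lower in NIPPONBARE, so that 4.98% were called and 79% of the calls were higher. The share was 69% after quantile normalization and 67% with the arrays scaled to the actin gene ACT1. That scaling brought the median difference of all probe sets to -0.124, from 0.046 without it. The NIPPONBARE arrays were the brighter ones, with median intensities of 64.5 to 68.8 against 56.4 to 65.1, and the median difference of all probe sets was 0.046. P-values measure the spread between arrays of these varieties. With 1 mean per variety, so that the spread was that between varieties, 159 probe sets were higher and 20 lower.

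On the first 2 principal components of the 18 arrays, NIPPONBARE lay apart from every other variety. The first component carried 40.3% of the variance and separated the indica arrays, at -107.9 to -92.6, from the japonica arrays, at 21.8 to 80.1. On the second component, with 14.8% of the variance, the NIPPONBARE arrays lay at 69.8 to 79.4 and the other arrays at -73.6 to 30.9. Pearson's r between log2 intensities, across probe sets that are not independent replicates, was 0.989 to 0.99 among NIPPONBARE arrays. It was 0.967 to 0.976 with HUHAN3, 0.959 to 0.977 with MILT1444 and 0.959 to 0.965 with EMATAYIN. With the indica varieties it was 0.935 to 0.946 for DOURADOAGULHA and 0.934 to 0.945 for KHAUMEO. Floral organ genes were bright in all 18 arrays, with summed intensities of 57673 to 61918 in NIPPONBARE and 48257 to 59675 in the others for 18 MADS-box family and partner genes, and all 4 defining root markers measured were at background.

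**Figure D1:**
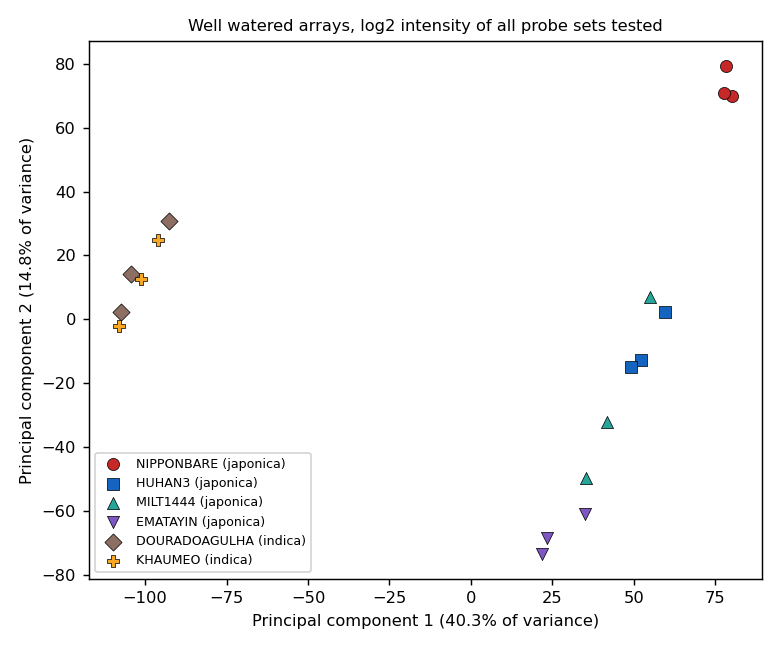
First and second principal components of log2 intensity for the 18 well watered arrays, with 1 point per array and colour and shape by variety. The 3 NIPPONBARE arrays lie at 69.8 to 79.4 on the second component, above all other arrays, whose highest is 30.9.

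Against single varieties, NIPPONBARE was nearest to HUHAN3, with 1053 probe sets higher (1.84%) and 411 lower (0.719%). It had 1600 higher (2.8%) and 580 lower (1.01%) than MILT1444, and 1756 higher (3.07%) and 694 lower (1.21%) than EMATAYIN. The indica varieties were farthest, with 3359 higher (5.87%) and 1287 lower (2.25%) against KHAUMEO and 3598 higher (6.29%) and 1123 lower (1.96%) against DOURADOAGULHA. These 5 comparisons share the NIPPONBARE arrays. Of the 2248 probe sets higher than the mean of the others, 482 were called against both indica varieties and against no japonica variety, and 475 against all 3 japonica varieties. Of the 598 lower ones these counts were 130 and 110.

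Probe sets called the same way against each of the 5 varieties numbered 370 higher (0.647%), with a median difference of 2.24, and 65 lower (0.114%), with a median of -2.07. All 3 NIPPONBARE arrays lay above the other 15 in 1765 probe sets (3.09%) and below them in 1007 (1.76%), and 719 and 213 of these were called. The same contrast made for each variety in turn gave mostly higher calls for the japonica and mostly lower calls for the indica varieties. NIPPONBARE had 79% higher calls, HUHAN3 65.4%, MILT1444 63.3%, EMATAYIN 55.9%, KHAUMEO 30.7% and DOURADOAGULHA 26.3%. The 6 contrasts share all arrays and were not tested against each other. Probe sets whose names begin with OsAffx, 25500 with a median log2 intensity of 5.17, gave 289 of the higher and 166 of the lower NIPPONBARE calls, and the other 31694, with a median of 7.55, gave 1959 and 432.

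**Figure D2:**
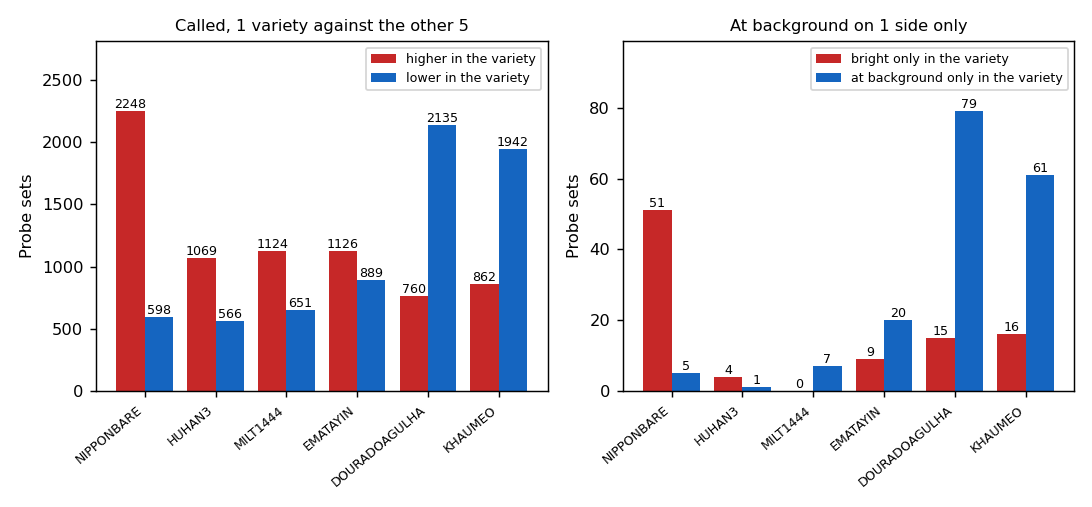
Number of probe sets called when each variety was set against the mean of the other 5 (left), and number bright only or at background only in that variety (right), with bars for higher or bright in red and lower or at background in blue. NIPPONBARE had 2248 higher and 598 lower calls and 51 probe sets bright only in it, against 0 to 16 in the other varieties.

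Some transcripts gave a signal in NIPPONBARE and none above background in any other variety. Background was taken as the log2 intensity of 6.392 below which 95% of the array's 64 reporter control probe sets lay, and a bright array had to exceed it by 1. By this rule 51 probe sets were bright on all 3 NIPPONBARE arrays and at background on the other 15, and 5 were at background in NIPPONBARE and bright on the other 15. Probe sets bright in only 1 other variety numbered 16 for KHAUMEO, 15 for DOURADOAGULHA, 9 for EMATAYIN, 4 for HUHAN3 and 0 for MILT1444. All 51 had been called against each variety, which is no separate support, since the rule itself sets the groups apart by more than 1. Of the 51, 21 have 1 annotated gene and 1 a gene symbol. That gene was OsC3H40, which encodes a zinc finger protein of the CCCH type. Its NIPPONBARE arrays read 9.88, 11.34 and 10.94, and the other 15 had a lowest value of 5.30, a median of 5.68 and a highest of 5.80. By the rule the groups cannot overlap, and the fitted difference of 5.12 (adjusted p = 1.27e-11) comes from the same values that met the rule. Since the other arrays were at background, the fold is a lower bound, taken as the NIPPONBARE mean over the background level, and OsC3H40 was at least 20.1-fold higher. Of the 51 probe sets 1, for LOC4324640, varied widely within NIPPONBARE, at 11.64, 10.41 and 8.23 against a highest value of 5.99 elsewhere.

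In the separate drought-stressed arrays most of the calls were made again in the same direction. There 2254 probe sets were higher (3.94%) and 537 lower (0.939%) in NIPPONBARE. Of the 2248 higher when well watered, 1781 (79.2%) were called higher under drought, 0 were called lower and 2245 kept their sign. Of the 598 lower, 417 (69.7%) were called lower, 0 were called higher and 597 kept their sign. Seen from the drought-stressed arrays, 79% of the higher and 77.7% of the lower calls had been called in the well watered ones. Of the 370 probe sets higher against each variety, 331 were called against the mean of the others, 234 again against each variety, and 301 had all 3 NIPPONBARE arrays above the other 15. Of the 65 lower against each variety, 57 were called and 37 again against each. Of the 51 probe sets bright only in NIPPONBARE, 50 were called. A test of the difference between treatments, over all 36 arrays, called 7 probe sets (6 higher under drought, 0.0105%, and 1 lower, 0.00175%), and 121 reached an unadjusted p of at most 0.05 with a 2-fold difference.

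**Figure D3:**
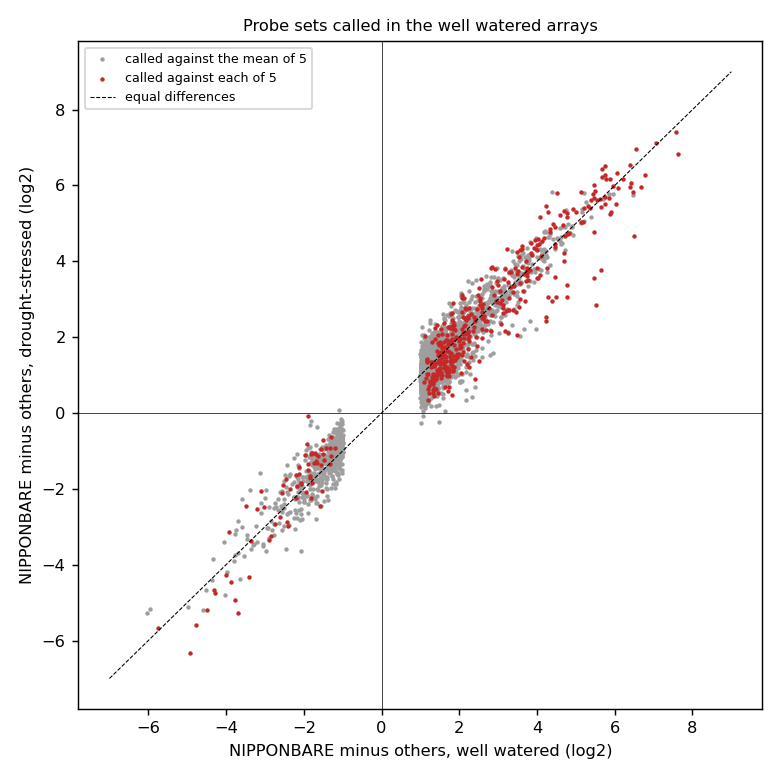
Difference between NIPPONBARE and the mean of the other 5 varieties (log2) in the well watered arrays (horizontal) and in the drought-stressed arrays (vertical), with 1 point per probe set called in the well watered arrays. Of 2248 higher calls 2245 and of 598 lower calls 597 have the same sign on both axes, and the probe sets called against each variety are in red.

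Genes with a symbol that were higher in NIPPONBARE, with its arrays above the other 15, came from several classes: enzymes that cut chitin and glucosides, a thiol redox protein, water channels, a sucrose carrier and anther genes. Chia1d, also named Cht7, encodes a chitinase. It read 9.82, 8.85 and 5.61 on the NIPPONBARE arrays, and 3.12, 3.59 and 5.21 were the lowest, median and highest of the others. Its lowest NIPPONBARE array was thus only just above the others, and the fitted difference was 4.39 (adjusted p = 4.36e-05), and 2.96 under drought, where the arrays overlapped. All other arrays and the lowest NIPPONBARE array were below the background level, so that no fold is given for Chia1d. BGLU19, a beta-glucosidase, read 8.25, 7.72 and 7.69 against 3.70, 4.57 and 6.86. It was higher by 2.94 ± 0.22 (adjusted p = 6.17e-08) and by 2.96 under drought. The median of the other arrays was below the background level, so that the size of this difference is uncertain. GRXS9, a glutaredoxin, read 9.66, 10.65 and 9.09 against 6.29, 7.02 and 7.70, a difference of 2.76 ± 0.26 (adjusted p = 1.05e-06) that was again 2.76 under drought. The other varieties differed little from one another for this gene, with means of 6.81 to 7.31.

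SUT5, a sucrose transporter, read 8.53, 7.93 and 7.78 in NIPPONBARE and 4.92, 5.95 and 7.11 as lowest, median and highest elsewhere. It was called against each variety, with a difference of 2.12 ± 0.29 (SE, adjusted p = 6.71e-05). Its median elsewhere was below the background level, so that the size of this difference is uncertain. The transcription factor BZIP52 was higher by 1.63 ± 0.25, with 9.30, 9.62 and 8.73 against a highest value of 8.70, and by 0.68 under drought, which was not called. ILL7, which belongs to the hydrolases that free auxin from its amino acid conjugates, was higher by 1.69 ± 0.11 and its arrays at 9.05, 9.09 and 9.01 lay close to EMATAYIN, whose mean was 8.91. PMEI28, a pectin methylesterase inhibitor, read 10.04, 10.02 and 10.06, and its difference of 1.98 ± 0.13 came largely from the indica varieties, with means of 6.20 in DOURADOAGULHA and 6.21 in KHAUMEO. Against the 3 japonica varieties alone it was 0.74 and not called. CYCP4-1, a cyclin of the P type, LTP2-B, a lipid transfer protein, and BGLU6, another beta-glucosidase, were higher by 1.85, 1.78 and 1.61. None of these 3 was called against all 5 varieties.

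**Figure D4:**
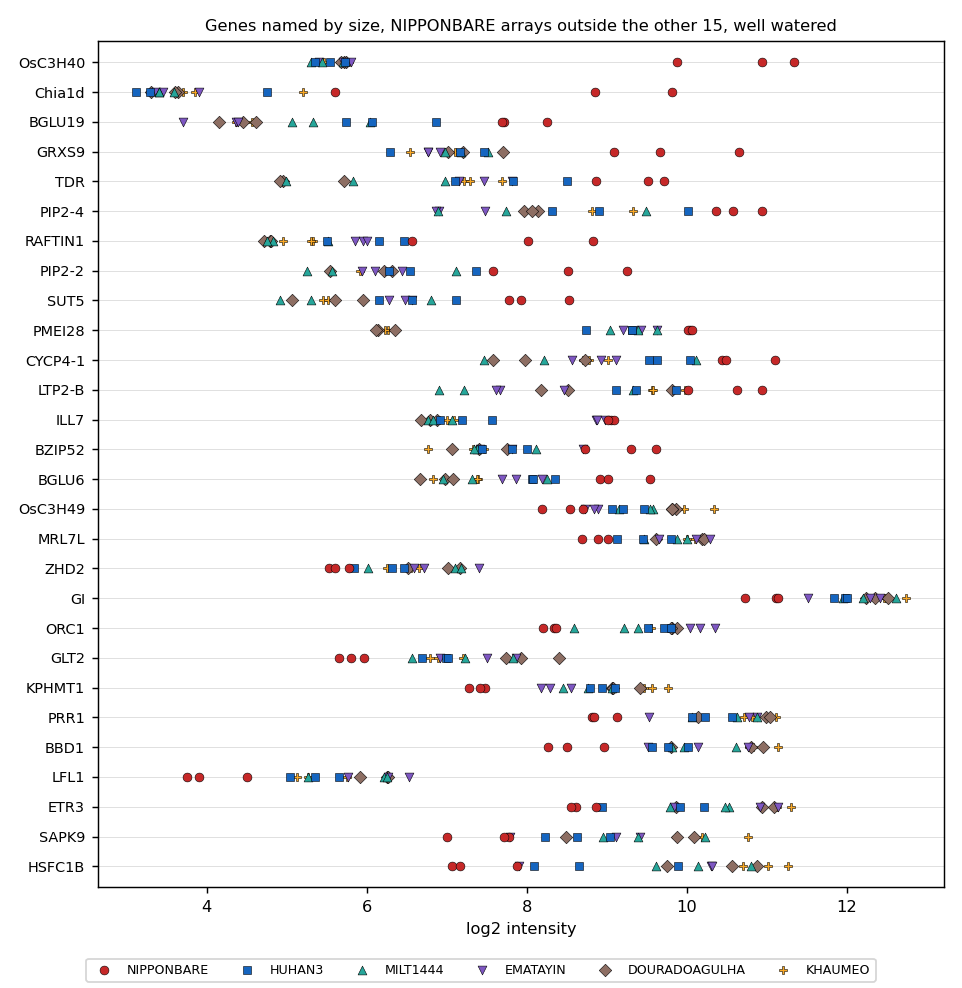
Log2 intensity of the 28 genes named by size (15 higher, 13 lower) among called genes whose NIPPONBARE arrays all lay above or all below the other 15 well watered arrays, with 1 point per array and colour and shape by variety. OsC3H40 at the top has NIPPONBARE arrays at 9.88 to 11.34 and all others at 5.30 to 5.80, and HSFC1B at the bottom has NIPPONBARE arrays at 7.06 to 7.88 against 7.90 to 11.26.

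TDR, EAT1 and BHLH142, transcription factor genes of the tapetum, were higher in NIPPONBARE, and other regulators of the same list, GAM1 (GAMYB) and PTC1, were not called. Of 11 measured genes of a list of 21 for tapetum and pollen wall, 3 were higher, 0 lower and 8 not called, with a median difference of 0.36 against 0.065 over all 17905 genes, of which 945 (5.28%) were higher and 171 (0.955%) lower with 1 probe set taken per gene. All 3 encode bHLH factors that act together in tapetum degradation. TDR read 9.72, 9.52 and 8.86 in NIPPONBARE, and the other 15 arrays had a lowest value of 4.92, a median of 7.15 and a highest of 8.50. The groups did not overlap, the difference was 2.60 ± 0.33 (SE, adjusted p = 2.82e-05) and 2.51 under drought, and the other varieties ranged widely, from a mean of 5.20 in DOURADOAGULHA to 7.81 in HUHAN3. EAT1 read 8.70, 8.19 and 8.84 against 5.28, 6.20 and 8.31. Here 1 array of another variety reached into the NIPPONBARE range, and the difference was 2.20 ± 0.33 (adjusted p = 0.000172). The median elsewhere was below the background level, so that the size of this difference is uncertain. BHLH142, also named TIP2, read 10.09, 10.05 and 10.24 against 7.74, 9.21 and 10.04, a difference of 1.16 ± 0.21 (adjusted p = 0.000989). It was 0.89 and not called against the 3 japonica varieties, and lost its call without DOURADOAGULHA (0.94) and with scaling to ACT1.

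The other 8 genes of the list differed by 0.03 to 0.59. The receptor kinase gene MSP1, needed for anther wall formation, differed by 0.03, MIL2 (TDL1A), its ligand, by 0.31 and GAM1 (GAMYB), a gibberellin-regulated MYB factor, by 0.59. CYP703A3, a cytochrome P450 of pollen wall formation, differed by 0.54. Outside the list, RAFTIN1, a BURP domain protein that the tapetum supplies to pollen, read 8.83, 8.01 and 6.57 against 4.72, 5.33 and 6.47. It was higher by 2.41 ± 0.31 (adjusted p = 3.02e-05) and by 0.90 under drought, not called there. The change between treatments had an adjusted p of 0.258. Its median elsewhere was below the background level, so that the size of the difference is uncertain. Summed over the 11 genes of the list, intensities were 10786 to 12716 in NIPPONBARE and 8327 to 11849 in the others, so that the groups overlapped. The part of anther tissue in these differences was not tested. In a mixed tissue, more cells of a type and more RNA per cell cannot be told apart.

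Of 10 measured meiosis genes 1 was higher, where 5.28% of all genes were. PAIR2, a protein of the chromosome axis needed for homologous pairing, read 10.57, 10.60 and 10.76 in NIPPONBARE and from 8.0 over a median of 9.59 to 10.79 in the others. Its difference of 1.21 ± 0.09 (SE, adjusted p = 4.24e-08) followed the subspecies, with means of 8.08 and 8.30 in the indica varieties and 9.60 to 10.64 in the japonica ones. It was not called against the 3 japonica varieties (0.38), nor without DOURADOAGULHA (0.87) or without KHAUMEO (0.93). The list of 18 floral organ genes, which hold the MADS-box factors that fix organ identity, had 0 called, with differences from -0.16 to 0.66 and a median of 0.21. The list for panicle branching and grain number had 0 of 12 called, with differences from -0.96 to 0.62 and a median of -0.15. Its members IPA1 (SPL14), SPL7 and APO2 had differences of -0.85, -0.71 and -0.96.

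With 1 probe set taken per gene, water channels were higher where they were called. Of 24 measured aquaporin genes 4 were higher and 0 lower, where 5.28% and 0.955% of all genes were, with a median difference of 0.32. All 4 encode channels of the plasma membrane. PIP2-4 read 10.94, 10.36 and 10.58 in NIPPONBARE and 6.86, 8.14 and 10.02 as lowest, median and highest elsewhere, without overlap, and differed by 2.43 ± 0.40 (SE, adjusted p = 0.000404) and by 2.28 under drought. PIP2-2 read 9.25, 8.52 and 7.58 against 5.26, 6.22 and 7.37. It was called against each variety, with a difference of 2.24 ± 0.35 (adjusted p = 0.000221). Its median elsewhere was below the background level, so that the size of this difference is uncertain. This probe set may also bind other transcripts by its type, and on a dimmer one PIP2-2 differed by 0.49, not called. PIP1-3, near background at 6.44, 5.24 and 4.51, differed by 1.45 ± 0.35, and without the first NIPPONBARE array by 0.93, which was not called (adjusted p = 0.0748). PIP2-7 differed by 1.38. The brightest aquaporins, among them AQP and PIP2-6, differed by 0.13 and 0.26 and were not called. TIP4-1, a channel of the vacuole membrane, stood the other way on 2 probe sets, with -0.92 on the brighter (not called) and -1.20 on the dimmer (called). The dimmer one read at most 3.99 in NIPPONBARE and 5.98 elsewhere, all below the background level, so that its size is uncertain.

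Clock and flowering genes were lower where they were called. Of 16 measured genes of the heading date list, 0 were higher and 2 lower, where 5.28% and 0.955% of all genes were, with a median difference of -0.30. GI, the rice GIGANTEA, links the circadian clock to flowering. It read 10.73, 11.12 and 11.14 in NIPPONBARE and 11.51, 12.29 and 12.74 as lowest, median and highest elsewhere, so that all 3 arrays lay below the other 15. The difference was -1.24 ± 0.16 (SE, adjusted p = 4.08e-05), and -0.63 under drought, which was not called. PRR1, a pseudo-response regulator of the clock, read 8.82, 9.13 and 8.84 against 9.53, 10.72 and 11.11. It was lower than each variety, by -1.63 ± 0.25 (adjusted p = 0.000177), and by -1.13 under drought. Other clock members had differences of -0.85 for PRR95, -0.30 for PRR73, -0.19 for DTH7 (PRR37) and 0.69 for CCA1 (LHY), none of them called. LFL1, a B3 domain factor outside the list, met the call with 3.76, 3.91 and 4.50 against 5.04, 5.77 and 6.53. Both groups were at or near background, so that no fold is given, and the call was lost with 50 added to the intensities (-0.68).

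The lower genes also held regulators of stress and hormone responses. HSFC1B, a heat shock factor of class C, had the largest difference among the 13 lower genes named by size, whose NIPPONBARE arrays all lay below the other 15. It read 7.06, 7.88 and 7.17 in NIPPONBARE and 7.90, 10.30 and 11.26 as lowest, median and highest elsewhere. The groups touched without overlap, and the difference was -2.62 ± 0.44 (SE, adjusted p = 0.000491), and -2.09 under drought. ETR3, an ethylene receptor, read 8.62, 8.86 and 8.55 against 8.94, 10.53 and 11.30, a difference of -1.79 ± 0.29 (adjusted p = 0.000365) that was -1.66 under drought. SAPK9, a kinase of the SnRK2 family of abscisic acid (ABA) and osmotic stress signalling that the study names, read 7.0, 7.78 and 7.72 against 7.79, 9.39 and 10.76. It was lower by -1.84 ± 0.36 (adjusted p = 0.00177) and by -0.90 under drought, not called there. Its probe set may also bind other transcripts by its type. Of the 24 measured genes of ABA signalling, SAPK9 was the 1 lower and the phosphatase gene PP2C68 the 1 higher (1.71 ± 0.39, with values of 5.65 to 6.06 below the background level). The other 9 SAPK kinases differed by 0.00 to 0.58 and were not called. Of the other genes named in the study, MADS26 differed by -0.06, IAA18 by 0.71 and IAA26 by -0.55, none of them called.

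Of 14 measured genes of DNA replication 2 were lower and 0 higher (0.955% and 5.28% of all genes), both of them subunits of the origin recognition complex, which marks where replication starts. ORC1 read 8.34, 8.20 and 8.37 in NIPPONBARE and 8.59, 9.78 and 10.35 as lowest, median and highest elsewhere, without overlap. It differed by -1.39 ± 0.13 (SE, adjusted p = 5.97e-07), and by -0.68 under drought, which was not called. ORC2 differed by -1.05 ± 0.08 (adjusted p = 6.14e-08) with arrays at 8.72, 8.63 and 8.70, close to the HUHAN3 mean of 8.91, and its call was lost against the 3 japonica varieties (-0.77), without DOURADOAGULHA (-0.95) and without KHAUMEO (-0.94). The 6 MCM helicase subunits that are loaded at these origins lay between -0.13 and -0.02 and were not called. KPHMT1, an enzyme of pantothenate synthesis, was lower by -1.57 ± 0.12 and read 7.28, 7.48 and 7.42 against 8.18, 9.06 and 9.77. BBD1, a nuclease, was lower than each variety, by -1.72 ± 0.25, and GLT2, a glutamate synthase, by -1.50 ± 0.22. All NIPPONBARE arrays of GLT2, and of ZHD2, were below the background level, so that the sizes of their differences are uncertain. ZHD2, MRL7L and OsC3H49 had differences of -1.01, -1.01 and -1.0, at the edge of the 2-fold threshold. Leaving out any of 8, 9 and 8 single arrays moved them below it, to as little as -0.96, -0.92 and -0.86 without the second NIPPONBARE array for ZHD2 and without the third for the others.

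Among stress protection genes, 2 of 13 heat shock protein genes and 2 of 8 late embryogenesis abundant and dehydrin genes were higher and 0 lower, where 5.28% of all genes were higher, but 3 of these 4 calls were lost when 1 array was left out. The small heat shock proteins called were HSP18.1, higher by 1.75 ± 0.50 (SE), and HSP18.0, by 1.29 ± 0.40, and the median difference of the list was 1.11 against 0.065 over all genes. HSP18.1 read 11.04, 10.28 and 11.72 in NIPPONBARE and up to 11.21 elsewhere, and HSP18.0 read 12.98, 12.76 and 13.56 and up to 13.48, so that both overlapped. HSP18.1 lost its call without the first or the third NIPPONBARE array (1.74 and 1.40, adjusted p = 0.0644 and 0.138), and HSP18.0 without any 1 of the 3 (1.35, 1.46 and 1.06, adjusted p = 0.0739, 0.0647 and 0.175). Against the 3 japonica varieties HSP18.0 differed by 0.42 (adjusted p = 0.558) and HSP18.1 by 1.31 (adjusted p = 0.117), and both calls were also lost without DOURADOAGULHA (0.99 and 1.54) or KHAUMEO (0.93 and 1.62). Of the late embryogenesis abundant proteins and dehydrins, which protect dried cells, LEA3 was higher by 1.71 ± 0.29 (adjusted p = 0.000534) and rab25 by 1.11 ± 0.34. LEA3 read 9.64, 9.11 and 8.71 and reached 8.74 elsewhere. The call of rab25 was lost without any 1 of the 3 NIPPONBARE arrays (1.13, 1.15 and 1.06, adjusted p = 0.0724, 0.085 and 0.105), and after quantile normalization (0.93) or scaling to ACT1 (0.94). Against the 2 indica varieties rab25 differed by 0.16 (adjusted p = 0.79), and against KHAUMEO alone by -0.13. PBZ1, a pathogenesis-related protein of the PR10 family, was the 1 gene of 13 defence response genes called, higher by 1.70 ± 0.29.

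Of 8 genes of phenylpropanoid and lignin synthesis 3 were higher and 0 lower, where 5.28% and 0.955% of all genes were, with a median difference of 0.58. CAD2, the cinnamyl alcohol dehydrogenase of gold hull and internode 2, read 11.12, 10.87 and 11.10 in NIPPONBARE and 9.27, 9.80 and 10.42 as lowest, median and highest elsewhere. Its arrays lay above all others, and the difference was 1.18 ± 0.12 (SE, adjusted p = 2.21e-06). CAD7 differed by 1.05 ± 0.22 and fell below the 2-fold threshold without the first NIPPONBARE array (0.93) or the second MILT1444 array (0.998). 4CL5, a 4-coumarate ligase, differed by 1.29 ± 0.38. This rested on the second NIPPONBARE array, at 7.79 beside 6.06 and 5.63, and was 0.64 without it (adjusted p = 0.264). All arrays of the other varieties were below the background level, so that the size of this difference is uncertain. Of 9 gibberellin genes EUI1, a P450 that inactivates gibberellins, was higher by 1.18 ± 0.35, and lost its call without the first (0.83, adjusted p = 0.159) or the second NIPPONBARE array (1.31, adjusted p = 0.0557). No member was called in the lists of 25 expansins, 17 cytokinin, 16 phytoalexin and 15 starch and sugar genes and 9 reference genes. Over all 25 lists, 300 different genes were measured, of which 20 were higher and 5 lower, where 5.28% and 0.955% of all genes were.

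Of 9 measured green tissue genes 1 was called, but their summed intensity was higher in NIPPONBARE than on any other array. The sum weighs the brightest genes most, and 1 of the 9 was below background. It was also not scaled for array brightness, and the upper quartiles of intensity were 412.6 to 423.7 in NIPPONBARE against 334.7 to 402.3. Whether the sums stay apart after scaling was not tested. The summed intensity of the 9 measured genes of a list of 28 was 18420 to 19106 in NIPPONBARE and 6188 to 17326, with a median of 13728, in the others, so that all 3 arrays lay above the other 15. The gene called was rca, which encodes Rubisco activase. It read 9.04, 9.28 and 8.96 against 6.86, 7.61 and 8.29, differed by 1.44 ± 0.17 (SE, adjusted p = 9.81e-06) and was called against each variety. CAB2R, a chlorophyll-binding protein, differed by 0.79 and was not called. Of 8 seed genes the globulin gene GLB was called, higher by 1.83 ± 0.20, with 10.04, 9.86 and 10.12 in NIPPONBARE. It was also bright in the indica varieties, with means of 9.49 and 9.44 beside 10.01 in NIPPONBARE, and the difference from them (0.54) was not called. The root list had 0 of 10 called. The part of green tissue in the other differences was not tested.

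Some genes higher in NIPPONBARE lay next to each other. Along the chromosomes, the next measured gene was also higher for 114 of the 945 higher genes (12.1%, where 5.28% of all genes were higher), and the next was also lower for 3 of the 171 lower ones (1.75%, where 0.955% were lower). These shares are a description, with no test. The higher genes held 1 run of 6 neighbours, 3 runs of 4, 8 of 3 and 84 of 2, and the lower genes 3 runs of 2.

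In the run of LOC4339508, LOC4339507, LOC4339506 and LOC4339505, all 4 genes were higher than in each other variety. LOC4339507 read 11.24, 11.24 and 11.58 in NIPPONBARE and 4.01, 4.32 and 4.47 as lowest, median and highest elsewhere. It was at background on all 15 other arrays, so that it was at least 31.1-fold higher, and the fitted difference of 7.06 (adjusted p = 4.84e-17), 7.13 under drought, is not a size. LOC4339508 and LOC4339506, also at background elsewhere, were at least 2.39-fold and 6.05-fold higher. LOC4339505 read 11.94, 11.88 and 11.92 and differed by 5.44 ± 0.10, with EMATAYIN, at a mean of 8.88, above the other 4 varieties. Those 4 were below the background level, so that the size of this difference is uncertain. In the run that opens with HSP16.0, that gene read 6.67, 5.93 and 7.67 against 4.10, 4.59 and 6.61, and differed by 2.06 ± 0.32. Its median elsewhere and its second NIPPONBARE array were below background, so that the size of this difference is uncertain. LOC4340663 read 8.25, 8.44 and 8.72 against 2.40, 2.95 and 3.56, at least 4.22-fold higher than background. LOC4340664 was at least 1.33-fold higher on its brighter probe set, but differed by 0.30, not called, on a dimmer one. LOC4340662, between HSP16.0 and LOC4340663, differed by 1.15 ± 0.22, and by 0.98, under the threshold, without the first NIPPONBARE array.

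The run of 6 had another pattern. In LOC4328397, LOC4328398, LOC4328399, LOC9266559 and LOC4328400, NIPPONBARE, MILT1444 and HUHAN3 were bright and EMATAYIN, DOURADOAGULHA and KHAUMEO dim. For LOC4328397 the NIPPONBARE arrays read 9.95, 9.93 and 10.20, the means of MILT1444 and HUHAN3 were 10.66 and 10.67, and those of EMATAYIN, DOURADOAGULHA and KHAUMEO were 3.31, 3.27 and 3.12. NIPPONBARE was thus not the highest, and the difference of 3.82 ± 0.14 came from 3 of the 5 varieties. Those 3 were below the background level, so that the size of this difference is uncertain. LOC4328394, at the end of this run, was bright in NIPPONBARE and DOURADOAGULHA (mean 9.18) and lay at 7.09 to 7.39 in the other 4. In the run of LOC4325213, LOC4325215, LOC4325216 and LOC4325217, each gene had its own set of dim varieties. LOC4325213 read 10.71, 10.70 and 10.96 in NIPPONBARE and 8.59 on average in KHAUMEO, against 4.23 to 4.72 in the rest. LOC4325217 was dim only in DOURADOAGULHA, with a mean of 4.02 beside 10.85 to 11.27 elsewhere, and its difference of 1.41 ± 0.07 was -0.01 without that variety and -0.10 against the 3 japonica varieties.

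**Figure D5:**
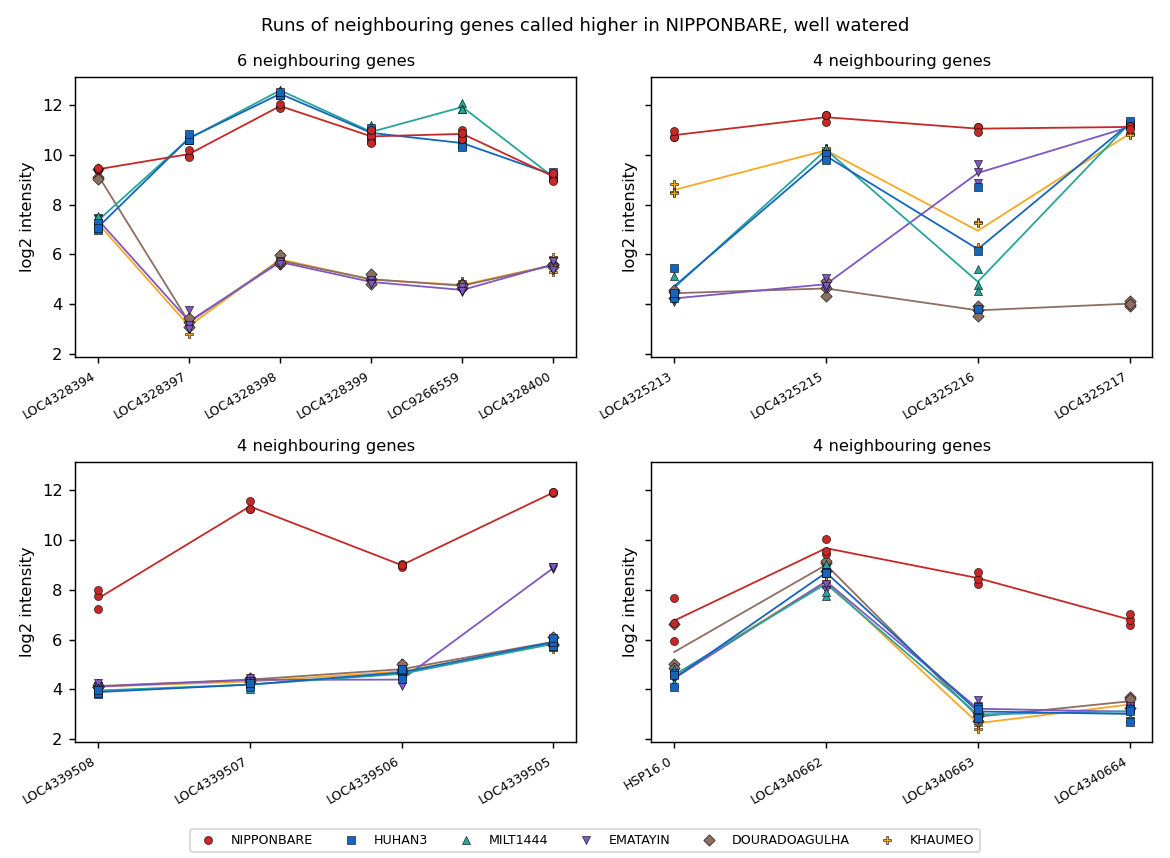
Log2 intensity of the genes in the 4 longest runs of neighbouring genes called higher in NIPPONBARE, in chromosome order, with points for the 3 arrays and lines through the means of each variety. In the lower left run NIPPONBARE stands alone, at 11.24 to 11.58 for LOC4339507 against 4.01 to 4.47, while in the upper left run MILT1444 and HUHAN3 follow it in 5 of the 6 genes.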

How the data were processed

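The Affymetrix Rice Genome Array measured total RNA of young panicles from 6 varieties under 2 treatments, with 3 arrays per group. The authors computed the deposited intensity values by RMA (Affy package) and tested them by limma, in versions not given in the sources used here. RMA usually returns log2 values, but the deposited intensities are linear and run from 1 to 21698.89 (112 values over 36 arrays equal 1). The sources used do not say how they were made linear. Values of single probes were not used here, and the number of arrays limits the precision.

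After the log2 transformation and the removal of 187 control probe sets, group means of the 6 well watered groups were estimated for 57194 probe sets with limma 3.58.1 (R 4.3.3) and the default eBayes. The drought-stressed arrays had a fit of their own, and the change between treatments came from a fit with 12 groups. P-values were adjusted within each contrast by the Benjamini-Hochberg method. The fit was tested on simulated data for the main contrast over 57194 probe sets, where it called 96 of 100 differences of 1.5 and 99 of 100 differences of 2.5 on the log2 scale. The simulated varieties had no other differences, unlike the real ones, so that these counts do not cover the spread between varieties. The highest share of equal values between 2 well watered arrays was 0.0699%, and no array was a copy of another.

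By the platform's annotation 22436 probe sets have 1 gene, 95 have several and 34663 have none, and 2457 of 17905 genes carry a symbol. Each gene is given by its probe set of highest mean, and genes without a symbol are named LOC and their identifier. Of the probe sets called, 546 are of types that may also bind other transcripts. Among them are those given for SAPK9, PIP2-2, LTP2-B, LEA3, HSP18.1, rca and LOC4340664. A dimmer probe set was not called for LTP2-B (0.233), MRL7L (0.283), HSP18.0 (-0.055) and LOC4328394 (-0.041). Another dimmer probe set was called for LTP2-B (1.887) and HSP18.0 (1.11). Genes were named if they were among the 15 largest differences in each direction that were called with all 3 NIPPONBARE arrays outside the other 15 (only 13 were lower), among the 3 largest calls of a list, named in the study, or in the longest runs of neighbours. PIP2-7, TIP4-1, LOC4324640 and list members that were not called were added after their values were seen. The comparison, the lists and their members were chosen with earlier results of these data known. The 25 lists held 543 genes, and 13 entries whose symbol meets another gene were left out. Families by gene description could not be formed, since the reference tables used here hold no descriptions. The background level was chosen after the values were seen. Gene order came from the assembly ASM3414082v1, and sequences are not given here. Alternatives were other scalings, scales, variance models, filters, replicate numbers as a block, comparator varieties and leaving out each array. Tables were handled with the R package data.table (version 1.17.8), pandas 2.3.3, numpy 2.4.6 and scipy 1.17.1, and figures drawn with matplotlib 3.10.9.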

Additional observations from a re-analysis of the deposited data

Results flagged for a closer look

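For 7 probe sets the difference between NIPPONBARE and the other varieties changed between treatments by limma's test of that change, adjusted over 57194 probe sets by the Benjamini-Hochberg method. A change is the difference under drought less the difference in well watered plants, in log2.

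The difference of LOC4334423 went from -3.49 to -2.46, a change of 1.03 ± 0.14 (SE, adjusted p = 0.00145). Its NIPPONBARE arrays read 6.55, 6.44 and 6.58 when well watered and 7.30, 7.19 and 6.95 under drought, and the median of the other 15 was 10.34 and 10.06. The arrays stayed below all others in both treatments. LOC4338795, on its second probe set, went from 2.84 to 3.86, a change of 1.02 ± 0.17 (adjusted p = 0.0208), while its brighter probe set changed by 0.59 (adjusted p = 0.324), not called. LOC4327151 went from 2.08 to 3.11, a change of 1.03 ± 0.18 (adjusted p = 0.0312). The NIPPONBARE arrays of LOC4327151 read 6.20, 6.20 and 6.40 when well watered and 7.15, 7.18 and 7.03 under drought. The other 15 read at most 4.52 and 4.30. These, and the NIPPONBARE arrays at 6.20, were below the background level of 6.392. On the second probe set of LOC4338795 the other 15 were also below it, at most 4.27 and 4.28. The sizes of both changes are thus uncertain.

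The other 4 probe sets have no annotated gene. The first changed by -1.58 ± 0.28 (adjusted p = 0.0368), and its NIPPONBARE arrays read 4.70, 6.46 and 5.15 when well watered and 4.43, 4.37 and 4.31 under drought. The second changed by 1.01 ± 0.18 (adjusted p = 0.0368), from 2.82 to 3.84. The third changed by 1.21 ± 0.22 (adjusted p = 0.0368), from 0.13, not called, to 1.33, and the fourth by 1.01 ± 0.17 (adjusted p = 0.0305), from -0.94 to 0.07. All 4 probe sets had NIPPONBARE arrays with a log2 intensity under 8.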

How the results depend on the processing

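The main counts were 2248 higher and 598 lower, with 370 and 65 against each variety and 79% of calls higher. With 50 added before the log2 they were 1243 and 288, 239 and 36 against each variety, and 81.2%, and in the drought-stressed arrays 1224 and 262. Quantile normalization gave a share of 69% (1797 and 809) and scaling to ACT1 67% (1764 and 869). Among probe sets brighter than the median, 166 were higher against each variety. Without a fold threshold the counts were 7952 and 4198, and 711 and 220 against each variety. Against the 2 indica varieties they were 3522 and 1120, over 6 variety means 159 and 20, and over 17905 genes, fewer features than probe sets, 931 and 155. The cause of these shifts was not tested beyond what each setting changes by construction.

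Leaving out 1 array gave 2044 to 2406 higher and 579 to 625 lower, 294 to 415 and 53 to 74 against each variety, a share of 77.8% to 79.9%, and 2105 to 2349 and 520 to 586 in the drought-stressed arrays. With replicate numbers as a block the counts were 2318 and 604, 394 and 83 against each variety, and 0 named genes lost their call. Deviations of same-numbered arrays of NIPPONBARE and another variety correlated at -0.189 to 0.363, so that the numbers were not taken to pair the samples.

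The difference of LOC4325217 turned from 1.41 to -0.008 without DOURADOAGULHA and to -0.099 against the 3 japonica varieties. Of 63 named genes called, 8 were called under every setting that gave them a value and 55 lost the call under at least 1, all 55 over 6 variety means, where TDR had an adjusted p of 0.396. Leaving out 1 array ended the call of 11. With 1 variety of interest and 3 arrays of it, differences below 2-fold and signals near background are the least certain.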

Other observations

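Apart from RBCS, of the green tissue list, and Chia1d and RAFTIN1, described above, these genes were picked after their values were seen and stand for no group. PSB28, a photosystem II protein, read 9.42, 9.45 and 9.27 against a highest value of 8.93 elsewhere, and differed by 1.51 ± 0.25 (SE, limma adjusted p = 0.000471). PSY2, a phytoene synthase of the carotenoid pathway, read 10.95, 11.10 and 10.98 against 10.45 at most and differed by 1.34 ± 0.23. CLA1, a synthase of the plastid isoprenoid pathway, differed by 2.65 ± 0.21 on 1 of its probe sets, at 8.20, 8.01 and 7.84 against 7.04 at most. All 3 were called against each variety. The median of CLA1 elsewhere was below the background level, so that the size of its difference is uncertain. GLK1, a factor of chloroplast development, was higher by 1.02 ± 0.21, and the ferredoxin gene ADI1 on 3 of its 4 probe sets, by 1.13 to 1.79. LIR1, looked up together with them, went the other way. It read 8.98, 9.73 and 9.24 against a median of 10.48 and was called lower, by -1.33 ± 0.27 (limma adjusted p = 0.00246). The small subunit gene RBCS differed by 0.21 on its brightest probe set, not called, and by -2.11 on another, so that its probe sets disagreed.

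JAZ9, a repressor of jasmonate signalling, differed by 3.53 ± 0.55 (limma adjusted p = 0.000233), with 8.94, 9.26 and 7.0 against a median of 4.56 and a highest value of 7.0. The anther gene C4 read 10.47, 8.08 and 6.04 and differed by 2.51 ± 0.52. The medians of JAZ9 and C4 elsewhere were below the background level, so that the sizes of their differences are uncertain. Chia1d (9.82, 8.85 and 5.61) and RAFTIN1 (8.83, 8.01 and 6.57) ranked the 3 NIPPONBARE arrays in the same way. Among lower genes, METK3, an S-adenosylmethionine synthase, read 5.66, 5.48 and 5.80 against a median of 9.41 and differed by -3.19 ± 0.18 (adjusted p = 1.26e-09), and the lowest of the other arrays read 5.28. All NIPPONBARE arrays of METK3 were below the background level, so that the size of its difference is uncertain. PCL1, a clock factor, differed by -2.19 ± 0.75 (adjusted p = 0.0486).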
